A study of Mus musculus with 21 samples.

Results

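The genes of lytic cell death and inflammasome signaling were examined in the neocortex of rNLS8 and wild-type mice. They were chosen by symbol, as the 10 genes Nlrp3, Pycard, Casp1, Casp4, Gsdmd, Il1b, Il18, Casp8, Ripk3 and Mlkl, and all 10 were found among the 48474 rows of the deposited count table. Counts were high enough for edgeR's quasi-likelihood test in 6 of them, in a fit that covered 18248 genes, and the other 4 genes (Casp4, Il1b, Ripk3 and Mlkl) stayed under its count filter. Each of the 6 tested genes had at least 10 counts in all 10 rNLS8 mice and in at least 10 of the 11 wild-type mice, so that none of them was tested only because it was high in 1 group.

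The rNLS8 mice carry a pair of transgenes, NEFH-tTA and tetO-hTDP-43ΔNLS, which together express a human TDP-43 without its nuclear localization signal in neurons that use the neurofilament heavy chain promoter, as long as no doxycycline is fed. The controls, labelled wild-type, were littermates that carried a single transgene, all mice had a C57BL/6J background, and the sources used here do not give the sex of single mice. Both groups were treated alike: at 17 to 19 weeks of age they were given a non-targeting antisense oligonucleotide (350 µg, 10 µL) by intracerebroventricular injection, and doxycycline (200 mg/kg of diet) was withdrawn 2 weeks afterwards. Neocortex was taken 3 weeks after the diet change that induced the transgene. The 21 mice came from independent cohorts, labelled as batch A, with 4 wild-type and 3 rNLS8 mice, and batch B, with 7 of each genotype.

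An inflammasome is a protein platform in the cytosol that assembles when a sensor such as NLRP3 meets signs of infection or damage. The adaptor ASC joins the sensor to caspase-1, which matures the cytokines IL-1β and IL-18 and cleaves gasdermin D into a pore former, and mouse caspase-11, encoded by Casp4, cleaves gasdermin D in the response to cytosolic lipopolysaccharide. Necroptosis is a separate lytic route in which RIPK3 phosphorylates MLKL, and caspase-8 holds this route in check. In the brain these proteins are mostly studied in microglia, the resident phagocytes.

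Total counts per mouse were between 20700912 and 22263809, so that 3 counts corresponded to 0.135 to 0.145 CPM (counts scaled by the total of the mouse). Values are given below as normalized counts, meaning that the counts of each mouse were scaled to the same effective library size. Over the whole table, 8154 of the 18248 genes tested (44.7%) differed between genotypes at an adjusted p under 0.05 in edgeR's quasi-likelihood test with batch as covariate, 4190 (23.0%) being higher and 3964 (21.7%) lower in rNLS8 mice. With scaling by library size only, 5832 genes (32.0%) were higher and 2752 (15.1%) lower. Against this broad background, 4 of the 6 tested genes differed (background 44.7%), of which Nlrp3, Pycard and Gsdmd were higher (23.0%) and Il18 was lower (21.7%). Casp1 and Casp8 did not pass. The median log2 fold change of the 6 tested genes was 0.31, compared with -0.00 over all genes tested. No gene of the 10 separated the groups completely, whereas 7.65% of all genes tested did so.

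**Figure D1:**
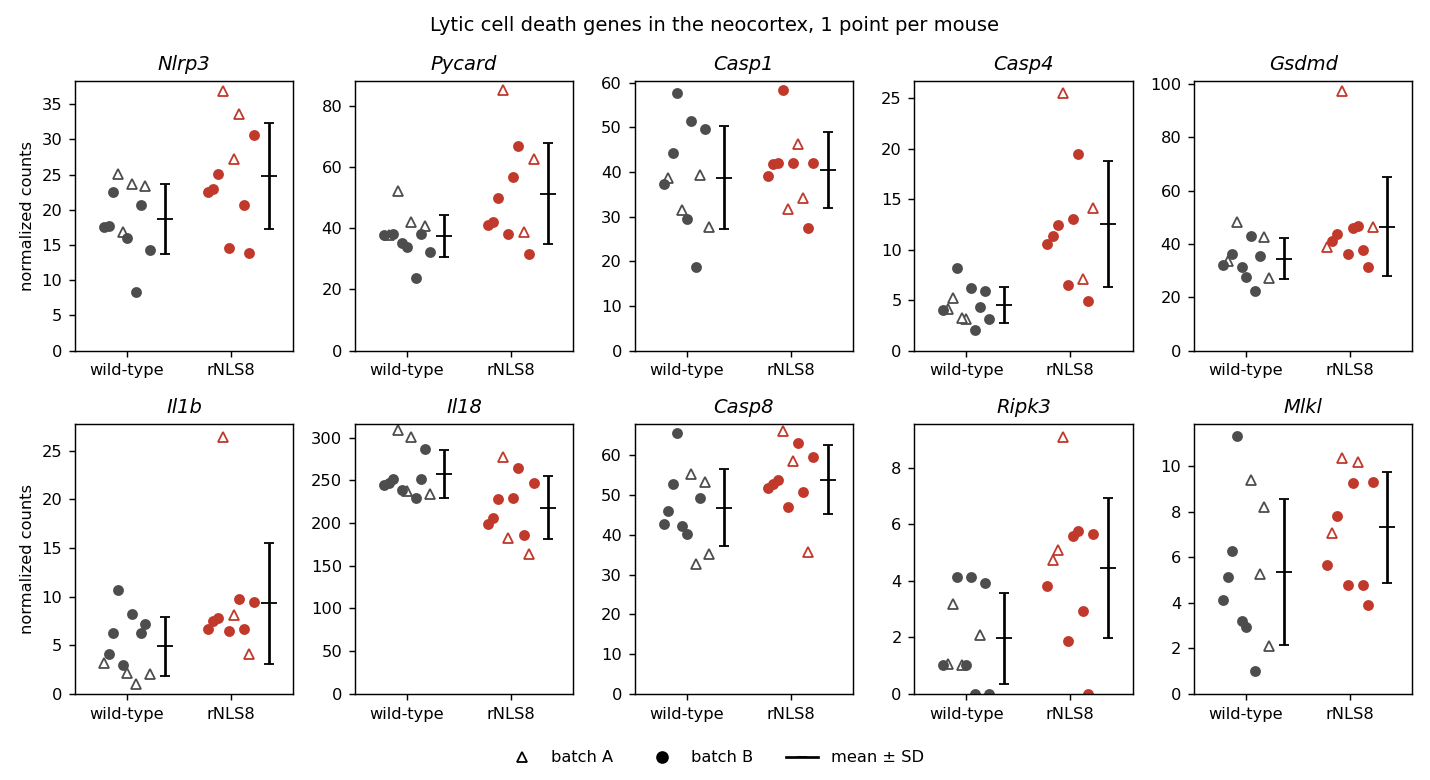
Normalized counts of the 10 genes in each mouse (y axis, 1 panel per gene with its own scale from 0), wild-type in grey and rNLS8 in red, batch A as open triangles and batch B as filled circles, with the mean and SD of each group as a bar. The groups overlapped in every panel, 7 rNLS8 mice exceeded all wild-type mice for Casp4, and a single batch A rNLS8 mouse stood at the top for Gsdmd and Il1b.

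The levels of the genes differed widely from each other. Per kilobase of the principal transcript in GENCODE, Il18 was the most abundant in wild-type mice with 299 ± 32.4 normalized counts per kilobase (SD, n = 11). It was followed by Casp1 at 25.9 ± 7.70, Gsdmd at 19.3 ± 4.31 and Casp8 at 18.1 ± 3.74, whose ranges of mean ± SD overlapped with each other. Pycard, at 9.87 ± 1.82, may be placed too low, since its GENCODE transcript of 3800 bases is longer than the 2495 bases of the gene in RefSeq. Nlrp3 at 4.66 ± 1.23, Il1b at 3.62 ± 2.24, Casp4 at 3.14 ± 1.23 and Mlkl at 2.72 ± 1.62 again overlapped with each other, and Ripk3 was the lowest at 1.04 ± 0.849. In rNLS8 mice the order changed only among the genes of ranks 6 to 8, which were Casp4 at 8.71 ± 4.34 (SD, n = 10), Il1b at 6.86 ± 4.6 and Nlrp3 at 6.18 ± 1.87, differences that were within the spread between mice.

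Casp4 had the largest ratio between the groups, although its counts were low. This gene lies on chromosome 9 of GRCm38.p6 from 5308849 to 5336791 on the plus strand, 1567 bases downstream of Casp1 (5298517 to 5307281, plus strand). To set these neighboring genes side by side, the 250 bases upstream of each start are written 5′ to 3′ from RefSeq (GRCm38.p6), with matches to the consensus of the NF-κB element in capitals.
Casp4, chr9:5308599-5308848, plus strand: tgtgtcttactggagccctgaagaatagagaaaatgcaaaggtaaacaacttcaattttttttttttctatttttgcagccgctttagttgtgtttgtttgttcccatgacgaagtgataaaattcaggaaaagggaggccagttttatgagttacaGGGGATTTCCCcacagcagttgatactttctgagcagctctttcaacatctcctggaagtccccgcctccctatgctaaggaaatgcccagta
Casp1, chr9:5298267-5298516, plus strand: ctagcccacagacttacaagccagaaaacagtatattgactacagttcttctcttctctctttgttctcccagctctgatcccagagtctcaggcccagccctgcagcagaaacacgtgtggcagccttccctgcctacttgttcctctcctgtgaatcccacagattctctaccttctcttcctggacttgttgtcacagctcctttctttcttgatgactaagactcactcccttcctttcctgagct
In the Casp4 window the capitals cover overlapping matches between 93 and 83 bases before the start, 1 of them on both strands, and the Casp1 window held no match. Of the 10 genes, 9 had RefSeq promoter entries (11 entries in all), and Gsdmd had none. Searched on both strands, the NF-κB consensus was found for 2 genes, Casp4 and Nlrp3 (in 1 of its 2 entries), and in 3.90% of 32851 promoter windows of the same length. Neither the element of interferon regulatory factors, searched as GAAA followed after any 2 bases by GAAA (2.98% of windows), nor TTCNNNGAA, the STAT palindrome (7.02%), was found upstream of any of the 9 genes. The form of the NF-κB consensus was chosen after these sequences had been seen. A match describes letters only, and binding was not measured.

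In wild-type mice, Casp4 ranged from 2.09 to 8.23 normalized counts with a median of 4.11, and in rNLS8 mice from 4.90 to 25.5 with a median of 11.9. All 10 rNLS8 mice were above the wild-type median and 7 were above every wild-type mouse, while T_70267, T_69524 and T61342 lay inside the wild-type range. The total was 48 counts in 11 wild-type and 130 counts in 10 rNLS8 mice. The means were 4.50 ± 1.76 (SD, n = 11) and 12.5 ± 6.23 (SD, n = 10), a ratio of 2.78. An exact two-sided permutation test of the genotype labels within batches gave p = 0.000117 for this difference (unadjusted, 1 of 4 such tests for the genes under the count filter). The difference was found in both batches, with an exact permutation p = 0.0286 in batch A, the smallest that 3 against 4 mice can give, and p = 0.00583 in batch B. Without the highest mouse, T60303, the exact permutation p was 0.000311. Casp4 entered the genome-wide edgeR fit only when the filter was relaxed, as its counts reached 10 in 7 rNLS8 mice and in no wild-type mouse. The log2 fold change was then 1.46 (standard error, SE, of 0.28, adjusted p = 0.000160, edgeR without filter), in a fit that called 12.7% of 35145 genes higher.

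Casp1, the neighbor of Casp4 and the caspase that acts within inflammasomes, did not pass the test. Its normalized counts ranged from 18.8 to 57.6 in wild-type mice with a median of 38.6, and from 27.4 to 58.4 in rNLS8 mice with a median of 41.9. The ranges overlapped almost entirely. The log2 fold change was 0.06 (SE 0.16, adjusted p = 0.805, edgeR's quasi-likelihood test), with values of 0.15 in batch A and 0.01 in batch B, and its sign turned when either wild-type mouse T_69523 (-0.026) or rNLS8 mouse T_69526 (-0.0071) was left out.

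Nlrp3 and Pycard encode the sensor and the adaptor of the best studied inflammasome, and both rose in rNLS8 mice, with ratios of means of 1.33 and 1.37. Nlrp3 (chromosome 11, 59541569 to 59566955, plus strand) ranged from 8.29 to 25.0 normalized counts with a median of 17.7 in wild-type mice, and from 13.9 to 36.9 with a median of 24.1 in rNLS8 mice. Of the rNLS8 mice, 5 were above every wild-type mouse, among them all 3 of batch A, and T_70263 and T_70261 were below the wild-type median. Means were 18.7 ± 4.96 (SD, n = 11) and 24.8 ± 7.53 (SD, n = 10), and the log2 fold change was 0.43 (SE 0.16, adjusted p = 0.0302, edgeR's quasi-likelihood test). This call was close to the threshold and was lost without any of 4 single mice, the wild-type mice T61345 (adjusted p = 0.0549) and T_69532 (0.0516) and the rNLS8 mice T60303 (0.0642) and T_69531 (0.0626). It was also lost without the count filter (adjusted p = 0.0574) and without the batch term (0.0845), and wild-type mice of batch A had 22.2 ± 3.65 normalized counts (SD, n = 4) as compared with 16.7 ± 4.62 (SD, n = 7) in batch B.

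Pycard (chromosome 7, 127991373 to 127993867, minus strand) ranged from 23.8 to 52.1 normalized counts with a median of 37.9 in wild-type mice, and from 31.7 to 85.1 with a median of 45.9 in rNLS8 mice. Here 9 of 10 rNLS8 mice were above the wild-type median, and 4 were above every wild-type mouse. The log2 fold change was 0.47 (SE 0.14, adjusted p = 0.00788, edgeR's quasi-likelihood test), and it passed the threshold without each of the 21 mice in turn. It was the only tested gene of the 10 to pass in batch B alone (log2 fold change 0.44, adjusted p = 0.0396), where 39.1% of genes were called and 19.3% were higher. Without T60303 and T61340 together, the highest rNLS8 mice of batch A for this gene, the log2 fold change was 0.34 and adjusted p = 0.0715 in the edgeR fit. In GENCODE, whose Pycard transcript is longer than that of RefSeq, 485 exon bases are shared with Gm45205 on the other strand, and reads of these genes cannot be told apart if counting ignored strand, which the sources used here do not state.

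Gsdmd, the substrate through which caspase-1 and caspase-11 open the plasma membrane, is located on chromosome 15 (75862144 to 75867408, plus strand). It ranged from 22.4 to 48.3 normalized counts with a median of 33.7 in wild-type mice, and from 31.3 to 97.3 with a median of 42.4 in rNLS8 mice. Only T60303, at 97.3, was above every wild-type mouse, and the other 9 rNLS8 mice, between 31.3 and 46.9, lay inside the wild-type range. The log2 fold change of 0.44 (SE 0.16, adjusted p = 0.0241, edgeR's quasi-likelihood test) therefore depended on this mouse: without it the log2 fold change was 0.27 and adjusted p = 0.0924. Nevertheless, 9 of 10 rNLS8 mice were above the wild-type median.

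Both cytokines that caspase-1 matures were detected, and they had opposite signs. Il18 (chromosome 9, 50554700 to 50581841, plus strand), by far the most abundant of the 10 genes, ranged from 229 to 308 normalized counts with a median of 247 in wild-type mice and from 163 to 277 with a median of 217 in rNLS8 mice. In 6 rNLS8 mice it was below every wild-type mouse, and 3 wild-type mice were above every rNLS8 mouse. The means of 257 ± 27.9 (SD, n = 11) and 218 ± 37.2 (SD, n = 10) gave a log2 fold change of -0.24 (SE 0.087, adjusted p = 0.0303, edgeR's quasi-likelihood test). This call was lost without any of 7 single mice, namely the wild-type mice T61331 (adjusted p = 0.0553), T61333 (0.0587) and T_70260 (0.0554) and the rNLS8 mice T61340 (0.0643), T61342 (0.0711), T_69524 (0.0559) and T_70252 (0.0518). With scaling by library size only, the log2 fold change was -0.16 and adjusted p = 0.169, and without the count filter adjusted p was 0.0561.

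Il1b (chromosome 2, 129364569 to 129371164, minus strand) ranged from 1.03 to 10.7 normalized counts with a median of 4.07 in wild-type mice, and from 4.08 to 26.5 with a median of 7.63 in rNLS8 mice. The highest value was again that of T60303, which had 28 counts, while the other 9 rNLS8 mice had 4 to 10 counts and the wild-type mice 1 to 10. The difference of 4.38 normalized counts had p = 0.0117 in the exact permutation test within batches, and without T60303 it was 2.48 with p = 0.0426. In batch A alone the exact permutation p was 0.0286, the smallest possible, and in batch B alone it was 0.287. In the edgeR fit without filter the log2 fold change was 0.93 (SE 0.34, adjusted p = 0.0449). Low counts thus limited what could be seen for Il1b: 5 of the 11 wild-type mice had 3 counts or fewer.

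**Figure D2:**
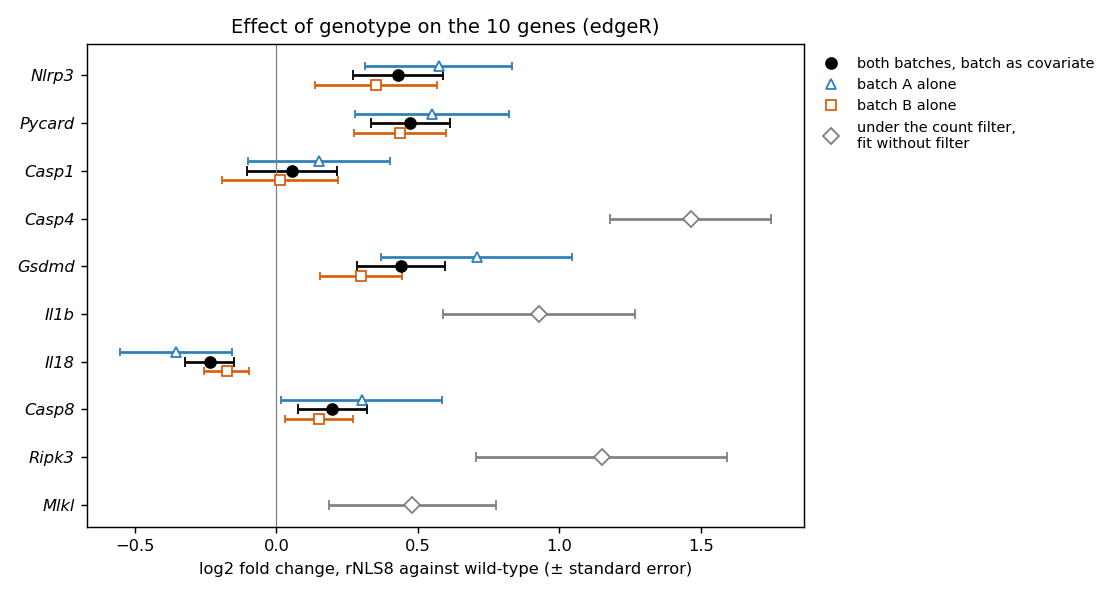
Log2 fold change of rNLS8 against wild-type mice (x axis, points with standard error) for each of the 10 genes, from edgeR over both batches (black), batch A alone (blue triangles) and batch B alone (orange squares), and for the 4 genes under the count filter from the fit without filter (grey diamonds). All 6 tested genes had the same sign in both batches, and Il18 was the only one of them below 0.

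For necroptosis, 1 gene (Casp8) was tested by edgeR and 2 genes (Ripk3 and Mlkl) stayed under the count filter. Casp8 (chromosome 1, 58795233 to 58847503, plus strand), whose product restrains necroptosis and can also cleave gasdermin D, ranged from 32.7 to 65.6 normalized counts with a median of 45.9 in wild-type mice and from 35.7 to 66.2 with a median of 53.3 in rNLS8 mice. Although 9 of 10 rNLS8 mice were above the wild-type median, 9 were also inside the wild-type range, and the log2 fold change of 0.20 (SE 0.12, adjusted p = 0.194, edgeR's quasi-likelihood test) did not pass. Ripk3 (chromosome 14, 55784995 to 55788857, minus strand) had 0 to 4 counts in wild-type and 0 to 9 counts in rNLS8 mice, 21 and 46 counts in total, with no count in 2 wild-type mice and 1 rNLS8 mouse. Its means were 1.96 ± 1.61 (SD, n = 11) and 4.45 ± 2.48 (SD, n = 10) normalized counts, and 6 rNLS8 mice were above every wild-type mouse. The exact permutation p was 0.0115 within batches, 0.0286 in batch A alone and 0.166 in batch B alone. In the edgeR fit without filter its log2 fold change of 1.15 (SE 0.44, adjusted p = 0.0593) did not pass. Mlkl (chromosome 8, 111311255 to 111338479, minus strand), the pore-forming effector of RIPK3, had 1 to 11 counts in wild-type and 4 to 11 counts in rNLS8 mice. All rNLS8 mice were inside the wild-type range of 1.02 to 11.3 normalized counts, and the difference of 1.95 had an exact permutation p of 0.103, which was 0.0139 without the wild-type mouse T_70256. Without filter, its log2 fold change of 0.48 (SE 0.29, adjusted p = 0.277, edgeR) did not pass either. Of the 4 genes under the count filter, 3 thus had an unadjusted permutation p under 0.05, all of them higher in rNLS8 mice, compared with 21.2% (12.2% higher) of the 3180 genes under the filter with a total of at least 67 counts, the total of Ripk3.

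Genotype effects on the 6 tested genes were compared between batches by an interaction term in edgeR. None passed the threshold, with unadjusted p from 0.258 (Gsdmd) to 0.790 (Pycard), and none had an unadjusted p under 0.05, compared with 5.64% of all genes tested. Without T60303, Il18 had an unadjusted interaction p of 0.00924. By adjusted p, 0 of 18248 genes passed in edgeR, and DESeq2 called 1 gene, none of the 6. On simulated data, the edgeR interaction test recovered 15 of 66 genes whose log2 fold change differed by 0.5 between batches, and 42 of 66 at 1. Differences of this size between batches could therefore have been missed. Within batch A alone, no gene of the 6 passed the edgeR test at 3 against 4 mice (11.8% of all genes did, and 1 of the 6 had an unadjusted p under 0.05), although the log2 fold changes of 0.57 (Nlrp3), 0.55 (Pycard), 0.71 (Gsdmd) and -0.35 (Il18) were larger in size than those over both batches.

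**Figure D3:**
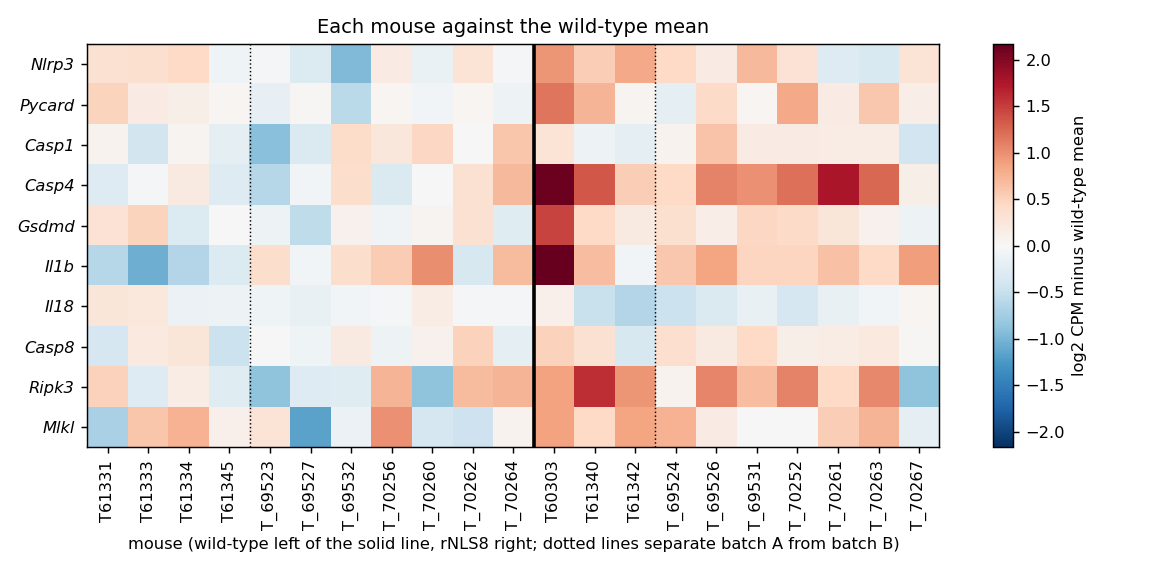
Log2 CPM of each gene (rows) in each mouse (columns) minus the wild-type mean of that gene, with a prior count of 2, red above and blue below the wild-type mean. Wild-type mice are left of the solid line, dotted lines separate batch A from batch B, and the darkest cells are Il1b and Casp4 in the rNLS8 mouse T60303.

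A single rNLS8 mouse of batch A, T60303, had the highest value of its group for 8 of the 10 genes, the exceptions being Casp1, where T_69526 was highest, and Ripk3, where T61340 was highest. Without T60303, the edgeR test called 2 of the 6 genes, Pycard and Il18 (42.6% of all genes in that fit), and without T60303 and T61340 it called 1, Il18 (41.7%). The same mouse had the highest summed level of interferon-stimulated genes, microglia markers and macrophage markers among the rNLS8 mice, as well as the highest sum of astrocyte markers among them (98882 normalized counts, the wild-type range being 89801 to 117192) and the lowest sum of neuron markers of all 21 mice (86162, the next mouse being at 92086). Their part in the values of the 10 genes was not tested. Summed normalized counts of 10 microglia markers were 8664 to 9946 in wild-type and 9244 to 13308 in rNLS8 mice, with 9 rNLS8 mice above every wild-type mouse. Of these markers, 5 were higher in rNLS8 mice (among them C1qa), P2ry12 was lower and 4 did not pass (44.7% of all genes tested were called, 23.0% being higher and 21.7% lower). Without T60303 and T61340 together, Tmem119 (adjusted p = 0.0558), Csf1r (0.114) and Aif1 (0.0809) lost their calls in edgeR. With scaling by library size only, Cx3cr1 and Siglech were also called higher (32.0% of all genes tested were higher). For 12 macrophage, monocyte and neutrophil markers the sums were 133 to 237 and 154 to 328, and 0 of the 5 tested passed in edgeR or DESeq2 (2 had an unadjusted edgeR p under 0.05). In other edgeR fits, Lyve1 passed with scaling by library size only (adjusted p = 0.0385) and in batch A alone (0.0489). It also passed without T_69527, T_70256 or T_70252, and Ms4a7 passed without T_70264, T61340 or T61342. The 7 untested markers had at most 34 counts in any mouse. Among these, Plac8 had 16 counts in wild-type and 148 in rNLS8 mice and Ccr2 had 49 and 88 (adjusted p = 6.41e-07 and 0.0122 in edgeR without filter), whereas S100a8 and S100a9 had at most 16 counts and Ly6g, Retnlg and Cxcr2, which mark neutrophils, at most 4 in any mouse. Of the T and NK cell markers, Cd4 was lower (log2 fold change -1.24, adjusted p = 0.00345 in edgeR), with a mean of 174 normalized counts in wild-type mice. The T cell genes Cd3e, Cd3d and Cd3g had 10, 3 and 5 counts in all wild-type and 6, 6 and 12 in all rNLS8 mice. Which cells gave the Cd4 counts was not tested. All markers of this list other than Cd4 had at most 6 counts in any mouse. Gzmb, with 1 count in all wild-type and 11 in all rNLS8 mice, was the only one of them called in edgeR without filter (adjusted p = 0.00975, 12.7% of 35145 genes being higher). Prf1, with 4 and 2 counts, went the other way. Of 9 neuron markers, 1 was higher and 5 were lower, and of 8 astrocyte markers, 1 was higher and 5 were lower (21.7% of all genes tested were lower). With scaling by library size only, 3 neuron and 2 astrocyte markers were lower (15.1% of all genes tested). Slc17a7, a marker of excitatory neurons in neocortex and hippocampus alike, was at 31929.8 ± 4038 normalized counts (SD) in the 11 controls. The labels name the tissue as neocortex and the study's methods name cortex for bulk RNA, whereas a figure legend of the study names hippocampus, and no marker here was used to tell them apart. In bulk tissue, fewer cells of a type and less RNA per cell cannot be told apart.

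The wider pathway was described by lists of other genes with related roles. In 16 further inflammasome sensors and regulators, 11 were tested, of which 4 were higher and 2 lower (44.7% of all genes tested were called, 23.0% being higher and 21.7% lower), with a median log2 fold change of 0.15 (-0.00 over all genes tested). Among the 5 untested ones, Nlrp10 had 97 counts in wild-type and 35 in rNLS8 mice and was lower only in the edgeR fit without filter (log2 fold change -1.47, adjusted p = 0.0138). Naip2, a sensor of bacterial secretion proteins, was higher at 51.5 ± 14.9 (SD, n = 10) as compared with 27.3 ± 5.56 normalized counts (SD, n = 11), a log2 fold change of 0.92 (SE 0.13, adjusted p = 2.61e-06, edgeR's quasi-likelihood test). Its relatives Naip5 (0.74) and Naip6 (0.70) were also higher on the log2 scale, but reads of these similar genes may have been split during counting. Without T60303 neither Naip5 (adjusted p = 0.0834, edgeR) nor Naip6 (0.164) passed, which left 2 genes of this list higher. Naip6 had a median of 9.24 normalized counts and at most 12 counts in wild-type mice, so that it passed the count filter only with the help of the rNLS8 mice. The call of Naip6 was close to the threshold (adjusted p = 0.0401 in edgeR), and it passed in neither batch A (0.216) nor batch B alone (0.191). It was also lost without filter (0.0530), without the batch term (0.0587) and without any of 9 other single mice (0.0503 to 0.0726), namely the rNLS8 mice T61342, T_69531, T_70263 and T_70267 and the wild-type mice T61333, T61334, T61345, T_69523 and T_70264. Aim2, a sensor of cytosolic DNA, was higher by 0.39 on the log2 scale. Panx1, a channel that releases ATP, was lower (log2 fold change -0.47, adjusted p = 2.09e-05 in the edgeR test), as was Nek7, the kinase that NLRP3 needs to assemble (-0.17). With scaling by library size only, the call of Nek7 was lost (log2 fold change -0.09, adjusted p = 0.162, edgeR), and 6 genes of this list were higher and 1 was lower. P2rx7, the ATP receptor upstream of NLRP3, had a log2 fold change of 0.00 and did not pass.

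Downstream of gasdermins, Ninj1, whose product ruptures the membrane of dying cells, was higher in rNLS8 mice (log2 fold change 0.34, SE 0.078, adjusted p = 0.000923, edgeR's quasi-likelihood test). Gsdme, the other abundant gasdermin, had a log2 fold change of -0.11 and did not pass, and the 5 remaining gasdermins of this list had at most 5 counts in any mouse.

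The genes around death receptors and RIPK1, of which 19 of 20 were tested, contained 8 that were higher and 3 that were lower (44.7% of all genes tested were called, 23.0% being higher), with a median log2 fold change of 0.05. The untested gene was Tnf, which encodes the cytokine tumor necrosis factor, with 9 counts in wild-type and 35 in rNLS8 mice (log2 fold change 1.90, adjusted p = 0.00543 in edgeR without filter). Zbp1, which encodes a nucleic acid sensor that recruits RIPK3 and is known to be induced by interferon, was higher at 34.8 ± 17.7 (SD, n = 10) as compared with 3.00 ± 2.13 normalized counts (SD, n = 11), a log2 fold change of 3.49 (SE 0.30, adjusted p = 1.48e-09, edgeR's quasi-likelihood test), and it passed the count filter only through the rNLS8 mice. Ticam1, the adaptor of Toll-like receptors that can bind RIPK3, and Tnfrsf1a, a receptor of tumor necrosis factor, were higher by 0.33 and 0.36 on the log2 scale. Cyld, a deubiquitinase of RIPK1 complexes, was lower (log2 fold change -0.75, adjusted p = 1.09e-08 in the edgeR test), and so was the inhibitor of apoptosis Xiap (-0.33). Fadd and Cflar, the partners of caspase-8, had log2 fold changes of -0.00 and 0.01 and did not pass.

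In IL-1 family signaling, 10 of 15 genes were tested, of which 4 were higher and the other 6 did not pass (44.7% of all genes tested were called, 23.0% being higher), with a median log2 fold change of 0.11. Among the tested genes, the largest fold change was that of Il1a, which encodes a cytokine that needs no inflammasome for its activity, at 25.4 ± 7.19 (SD, n = 10) as compared with 11.8 ± 2.96 normalized counts (SD, n = 11), a log2 fold change of 1.10 (SE 0.17, adjusted p = 1.03e-05, edgeR's quasi-likelihood test). The receptor Il1r1 (0.55), the IL-18 binding protein Il18bp (0.67) and the kinase Irak1 (0.15) were also higher on the log2 scale. The call of Irak1 was lost without either rNLS8 mouse T60303 (adjusted p = 0.0717, edgeR) or T_70261 (0.0557). In the edgeR fit without filter, which called 12.7% of 35145 genes higher, 6 genes of the list were higher. Among them was Il1rn, the receptor antagonist, with 5 counts in wild-type and 27 in rNLS8 mice (log2 fold change 2.30, adjusted p = 0.0122 in edgeR without filter). A single rNLS8 mouse held 13 of the 27 counts of Il1rn, and the rNLS8 median was 0.998 normalized counts. The other gene called only without filter was Il1r2, the decoy receptor, with 53 and 100 counts (log2 fold change 0.97, adjusted p = 0.0119 in edgeR without filter).

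For comparison, the genes of caspases and mitochondrial apoptosis, all 18 of which were tested, contained 7 that were higher and 2 that were lower (44.7% of all genes tested were called, 23.0% being higher), with a median log2 fold change of 0.05. Bid, a substrate of caspase-8 that links it to mitochondria, was higher at 335 ± 37.0 (SD, n = 10) as compared with 147 ± 20.1 normalized counts (SD, n = 11), a log2 fold change of 1.19 (SE 0.080, adjusted p = 2.33e-11, edgeR's quasi-likelihood test). Bbc3 (0.81), Casp2 (0.42) and Casp9 (0.23) were higher and Bcl2l1, a survival factor, was lower (-0.24) on the log2 scale. Of 10 interferon-stimulated genes, all 10 were higher (23.0% of all genes tested were higher), by 1.43 (Ifi27) to 3.21 (Irf7) on the log2 scale. Their summed normalized counts did not overlap between groups (1136 to 1690 in wild-type and 2965 to 11559 in rNLS8 mice). Of all genes tested, taken singly, 7.65% did not overlap between groups.

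**Figure D4:**
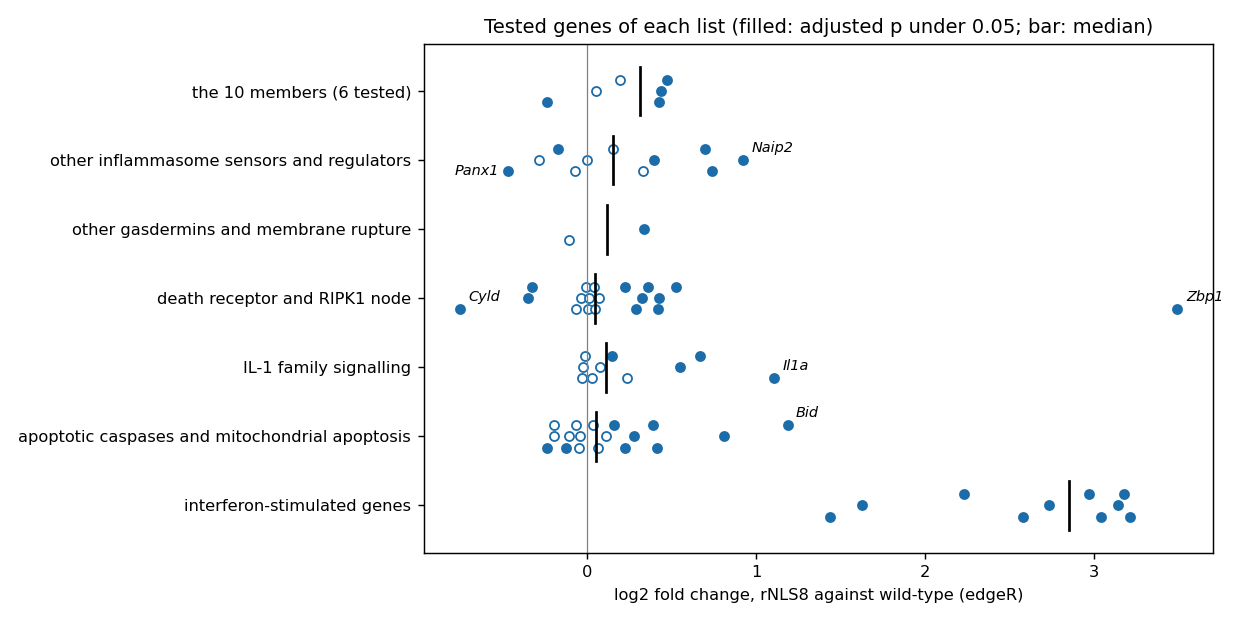
Log2 fold change of rNLS8 against wild-type mice (x axis, edgeR) for each tested gene of the 10 member genes and of 6 lists (y axis), filled where the adjusted p was under 0.05, with the median of each list as a vertical bar. Points of the lists lie on both sides of 0 except the interferon-stimulated genes, all of which were above 1, and Zbp1 stands apart within the list of death receptor genes.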

How the data were processed

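Bulk RNA sequencing of neocortex from 21 mice was analyzed. Per the labels, poly(A) RNA was sequenced as paired ends, and the submitters' processing notes name HISAT2, Bowtie2, RSEM and the build mm10, without versions or strand setting. The authors deposited whole-number counts per gene symbol without normalization. No column was left without a sample, and rows of further gene copies (2553 rows, 4.11% of counts, none of the 10 genes) were kept.

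Analyses used edgeR 4.0.16 (R 4.3.3). After filterByExpr by genotype (minimum count 10, minimum total 15) and TMM normalization, the quasi-likelihood test was run with batch and genotype, and p-values were adjusted by Benjamini-Hochberg over the whole tested table (threshold 0.05). The SE is the size of the log2 fold change over the square root of F. Normalized counts are counts over the effective library size times the mean of that size. Genes under the filter were compared by an exact two-sided permutation of mean normalized counts, with genotype labels permuted within batches (120120 arrangements). Log2 CPM used a prior count of 2. All libraries of a group differed beyond counting error, and each was a separate mouse. Counts carried no molecular identifiers, so the level of 3 counts covers counting error only. Procedures were tested on simulated data. Positions and promoters came from RefSeq (GRCm38.p6), and transcript lengths from GENCODE.

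The 10 genes and all lists were chosen with earlier results of these data known, so that no pattern here is independent of them. Named were all 10 genes and, of each other list, up to 5 called genes with the lowest adjusted p, and up to 3 markers per cell type list. Naip6, Nlrp10, P2rx7, Gsdme, Tnf, Il1rn, Il1r2, Fadd, Cflar, Plac8, Ccr2, Cd4, Gzmb and the low neutrophil markers were added after their values were seen. The markers Cd3e, Cd3d, Cd3g, Prf1, Lyve1, Ms4a7, Tmem119, Csf1r, Aif1, Cx3cr1 and Siglech were also named after their values were seen. Alternatives were edgeR without batch, DESeq2 1.42.0 with and without batch, scaling by library size, upper-quartile scaling, omitting the filter, a minimum of 10 counts in every mouse, either batch alone and leaving out each mouse. Chosen after seeing the data were a filter by the design matrix, leaving out copy rows, leaving out T60303 with T61340, and leaving out each mouse in the permutation tests.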

Additional observations from a re-analysis of the deposited data

Results flagged for a closer look

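Among rNLS8 mice (n = 10), the highest or lowest mouse was compared with the others by its gap to the nearest mouse as a share of the whole range (Dixon's ratio, with its 95% critical value for 10 mice) for the 10 genes, for their sum and for the summed lists. The ratio was above the critical value in 5 of 25 sets of values, where chance gives about 1 in 20, or 1.25 here. The sets are not independent, since the sum of the 10 genes contains Gsdmd and Il1b, and the critical value is for normally distributed values. The number 1.25 is therefore only a rough guide. In Gsdmd, T60303 had 97.3 normalized counts against 31.3 to 46.9 in the other 9 mice (ratio 0.765). In Il1b, T60303 had 26.5 normalized counts against 4.08 to 9.80 in the others (ratio 0.745). The sum of the 10 genes was also highest in T60303, with 676 normalized counts against 368 to 483 in the others (ratio 0.626). The summed genes of the death receptor and RIPK1 list were lowest in T61340, with 6177 normalized counts against 7169 to 8117 in the other rNLS8 mice (ratio 0.511). The summed endothelial markers were lowest in T_70267, with 4422 normalized counts against 5072 to 5542 in the others (ratio 0.581).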

How the results depend on the processing

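The number of the 10 genes called was 4 by edgeR with batch and between 3 and 5 under other scalings, filters, models and DESeq2. Without the filter it was also 4, but Nlrp3 and Il18 lost their calls and Casp4 and Il1b gained them. It was 0 in batch A alone and 1 in batch B alone, where fewer mice were tested, and 1 without T60303 and T61340, and it ranged from 2 to 4 without each mouse in turn. In batch A alone, 2195 genes of the whole table, 18 genes of the pathway lists and 8 of the marker lists were called, compared with 8154, 41 and 21 over both batches. Without each mouse in turn these numbers were 7805 to 8363, 36 to 43 and 20 to 24 (7668, 35 and 18 without T60303 and T61340 together), the interaction with batch called 0 of the 6 tested genes, and 3 to 4 of the genes under the filter had a permutation p under 0.05. The log2 fold change of Casp1 ranged from -0.026 to 0.12 without each mouse in turn and was below 0 without wild-type mouse T_69523 (-0.026) and without rNLS8 mouse T_69526 (-0.0071), for which the cause was not tested. Scaling by library size moved the median log2 fold change of all genes tested by 0.0764 and the share of higher genes among those called from 51.4% to 67.9%, and Il18 was no longer called. No paired analysis was possible because the groups share no replicate numbers. Depth limits Casp4, Il1b, Ripk3 and Mlkl, which had at most 28 counts in any mouse.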
